A study of Mus musculus with 6 samples.

Results

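The SLC25 family encodes the mitochondrial carriers, and its transcripts were followed in mouse Eµ-Myc lymphoma cells with and without the miR-17~92 microRNA cluster. Members were the rows of the deposited count table whose NCBI gene number belongs to a mouse protein-coding gene named Slc25a followed by a number. There were 47 such genes among 24885 rows, which is every such gene in the RefSeq gene table used. They lie on 19 chromosomes. The group called del is 3 libraries of cells labelled deleted for the cluster. It was compared with the group called fl, 3 libraries of cells with the floxed, undeleted cluster. Eµ-Myc lymphomas arise in mice in which an immunoglobulin enhancer drives Myc in the B lineage, and all 6 libraries came from such cells carrying Cre-ERT2, a recombinase that 4-hydroxytamoxifen activates. Only del cells had been exposed to 4-hydroxytamoxifen (250 nM) and subcloned, so deletion, drug exposure and subcloning cannot be told apart, nor can any other difference between the cells of the 2 groups. Both groups had been cultured for 48 hours on irradiated Ink4a-null mouse embryonic fibroblasts. The labels do not say that the 3 libraries of a group were separate cultures or clones. The p-values therefore reflect only how these libraries vary, which may be technical variation. The study's title is about the metabolism of tumours, and the question here is how carrier transcripts differ without the cluster.

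Mitochondrial carriers are small proteins, nearly all of them in the inner mitochondrial membrane, that exchange a solute of the matrix for one of the cytosol. ADP and phosphate enter and ATP leaves through them, and citrate, malate, aspartate, glutamate, ornithine, acylcarnitine, folate, nucleotides, coenzyme A, iron and glutathione cross by other members. In growing tumour cells they link oxidative phosphorylation to the synthesis of lipids, nucleotides and heme. The miR-17~92 cluster holds 6 microRNAs in 4 seed families, and a microRNA lowers transcripts whose 3' untranslated region (UTR) pairs with its seed. The 6 mature sequences are shown because they define the sites counted in the carrier transcripts. They are from RefSeq (GRCm38.p6, chromosome 14, plus strand), 5′ to 3′, and capitals mark the seed, bases 2 to 8.
mmu-miR-17-5p: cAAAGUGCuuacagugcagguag
mmu-miR-20a-5p: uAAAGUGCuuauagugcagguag
mmu-miR-18a-5p: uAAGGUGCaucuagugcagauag
mmu-miR-19a-3p: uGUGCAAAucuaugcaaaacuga
mmu-miR-19b-3p: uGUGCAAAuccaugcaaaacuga
mmu-miR-92a-3p: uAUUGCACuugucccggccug
miR-17-5p and miR-20a-5p share a seed, as do miR-19a-3p and miR-19b-3p.

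Libraries of the 3' ends of polyadenylated RNA held 2121796 to 3738720 counts in del and 6554423 to 9580630 counts in fl, so depth went with the group. Levels below are given as CPM, which sets all libraries to the same total, and each log2 fold change is the del level minus the fl level with its standard error. The libraries differed widely in markers of cell type. All 14 tested of 16 B cell markers were higher in del, with summed levels of 1430 to 1644 CPM in del and 105 to 130 CPM in fl, and Cd79b, part of the antigen receptor of B cells, averaged 171 CPM in del and 2.12 CPM in fl. Ms4a1, another B cell marker, was near 0 in both groups. Of 6 epithelial markers all 3 tested were lower in del, with sums of 0.474 to 1.32 CPM in del and 371 to 411 CPM in fl. Defining B cell genes were thus near 0 in the libraries labelled fl, against their label. Across tested genes, Spearman's rho between libraries was 0.789 to 0.828 between the groups and 0.975 to 0.988 within them. The labels call both groups Eµ-Myc lymphoma cells, but whether they are the same line apart from the deletion was not tested, and each value of del minus fl compares the libraries so labelled. Of 12 myeloid markers 8 were higher and 2 lower in del (sums of 2553 to 3373 CPM in del and 103 to 118 CPM in fl). Markers of fibroblasts, the feeder cells, summed to 10.3 to 30.3 CPM in del and 0.917 to 7.48 CPM in fl, and 1 of the 2 tested was higher in del. T and NK cell markers summed to 27.9 to 38.5 CPM in del and 30.4 to 36.7 CPM in fl, yet of 3 tested 2 were lower and 1 higher in del. The part of these differences in any carrier result was not tested. In bulk RNA, fewer cells of a type and less RNA per cell cannot be told apart. Mir17hg, from which the cluster is cut, was at 167, 152 and 206 CPM in del and at 252, 263 and 262 CPM in fl, and was lower in del (log2 fold change -0.56 ± 0.15, adjusted p = 0.00844). Its annotated end lies 2222 bases past Mir92-1, the last microRNA of the cluster, so that a 3' tag there would not check the deletion. Myc was at 452, 422 and 395 CPM in del and at 454, 417 and 534 CPM in fl (log2 fold change -0.15 ± 0.15, adjusted p = 0.399). Adjusted p-values on genes are from the quasi-likelihood test of edgeR, adjusted by Benjamini-Hochberg, unless another tool is named.

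Carriers called at adjusted p below 0.05 were more often lower than higher in del. Of the 47 members 30 had enough counts for the test across 10260 genes, and 14 of these (46.7%) were lower and 5 (16.7%) higher, while 11 were not called. Over all tested genes 32.6% were lower and 32.5% were higher in del. Each count of calls in a role group or gene list below is to be read beside these 2 shares. A change of at least 2-fold past the threshold was found for 3 members in the lower direction (Slc25a1, Slc25a4 and Slc25a17), where the share of all genes was 15.9%. Only Slc25a20, 1 of the 30, was higher by at least 2-fold, where the share of all genes was 21.4%. Slc25a4 without fl replicate 1 (log2 fold change -0.72) and Slc25a20 without del replicate 2 (0.92) were changed less than 2-fold. The 3 del values all lay below the 3 fl values for 16 members, beside 35.7% of all tested genes, and all above them for 5 members, beside 34.2%. The log2 fold change was negative for 23 members and positive for 7, with a median of -0.35 (quartiles -0.65 and -0.04) and a range of -1.57 to 1.19. The median over all tested genes was -0.003 (quartiles -0.70 and 0.84). With counts thinned to equal depth, 8 of 29 members (27.6%) were lower and 3 (10.3%) higher in del, beside 2238 (lower) and 2514 (higher, 26.9%) of 9333 genes, so the share of lower members was then near that of all genes.

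**Figure D1:**
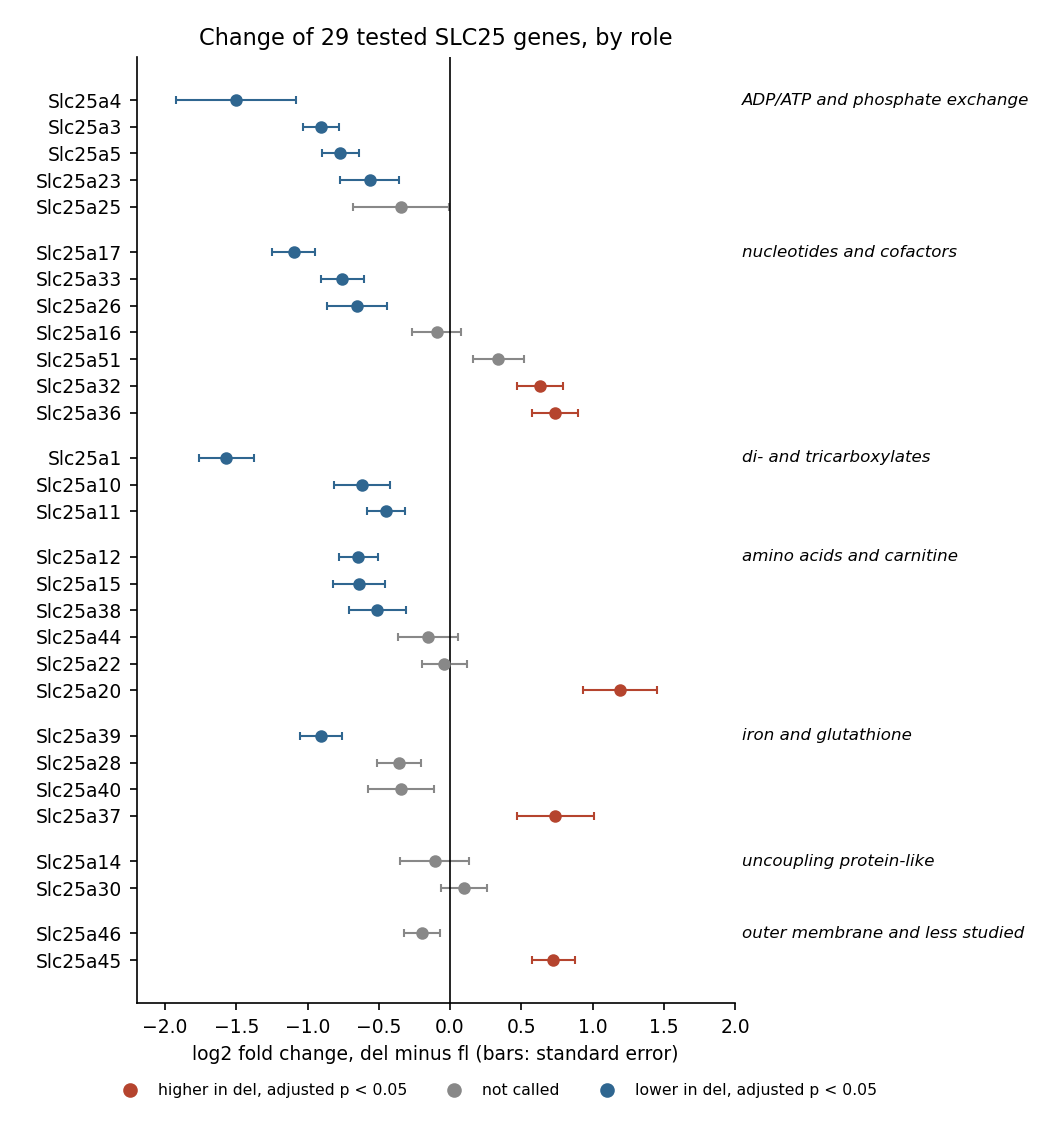
The log2 fold change (del minus fl) of 29 of the 30 tested SLC25 genes, grouped by role, with bars of 1 standard error and colours for the call at adjusted p below 0.05. The 5 tested genes of ADP/ATP and phosphate exchange and the 3 of di- and tricarboxylates all lie left of 0, between -1.57 and -0.34, while nucleotide and cofactor carriers lie on both sides of 0.

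Of 8 genes of ADP/ATP and phosphate exchange, which supply oxidative phosphorylation, 5 were tested. Of these 4 were lower in del, 1 was not called and none was higher, with a median log2 fold change of -0.77. The calls of Slc25a3 and Slc25a5 held under every alternative tested, and those of Slc25a4 and Slc25a23 did not. Slc25a3 (gene number 18674, chromosome 10, 91116574 to 91124046, GRCm38 as for all coordinates) encodes the carrier that brings phosphate into the matrix. It was at 420, 440 and 410 CPM in del and at 755, 806 and 818 CPM in fl, so that the groups were well apart. It fell by 0.91 ± 0.13 on the log2 scale (adjusted p = 0.000209). Slc25a5 (11740, chromosome X, 36795597 to 36798808) encodes adenine nucleotide translocase 2, the form typical of dividing cells. It was at 525, 543 and 527 CPM in del and at 856, 984 and 879 CPM in fl, and fell by 0.77 ± 0.13 on the log2 scale (adjusted p = 0.000599). The annotation holds 1 named pseudogene of Slc25a5, and the treatment of reads shared with it is not stated, so its level is uncertain.

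Slc25a4 (11739, chromosome 8, 46207168 to 46211062) encodes adenine nucleotide translocase 1, the form of heart and skeletal muscle. It was at 297, 257 and 269 CPM in del and at 1428, 440 and 462 CPM in fl. The groups did not overlap, but fl replicate 1 stood 3.17 times above the mean of the other fl libraries. The log2 fold change was -1.50 ± 0.42 (adjusted p = 0.0118) with all libraries and -0.72 ± 0.14 (adjusted p = 0.00199) without fl replicate 1. Without del replicate 3 it did not pass (adjusted p = 0.0524), nor with no count filter (adjusted p = 0.0642). In fl replicate 1, 94 of 5687 genes averaging at least 20 CPM in fl were over 2-fold above both other fl libraries, against 15 in fl replicate 2 and 1 in fl replicate 3. Slc25a4 made up 36.1%, 32.1% and 33.8% of the summed counts of the translocase pair Slc25a4 and Slc25a5 in del and 62.5%, 30.9% and 34.5% in fl. Apart from fl replicate 1, these shares lay close together in both groups.

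Calcium-regulated ATP-Mg/phosphate carriers load the matrix with adenine nucleotides. Of this set Slc25a23 was at 6.32, 6.63 and 5.95 CPM in del and at 8.03, 10.7 and 8.94 CPM in fl, with a log2 fold change of -0.56 ± 0.21 (adjusted p = 0.0371). It did not pass without del replicate 1 (adjusted p = 0.0827), del replicate 2 (0.0598), del replicate 3 (0.106), fl replicate 2 (0.127) or fl replicate 3 (0.0648), nor with DESeq2 (0.127). Slc25a25 was at 9.74, 4.74 and 4.60 CPM in del and at 5.73, 9.51 and 9.97 CPM in fl, and the groups overlapped (log2 fold change -0.34 ± 0.34, adjusted p = 0.393). Slc25a24 had 1, 0 and 2 counts in del and 1, 1 and 2 in fl. Slc25a31, the translocase known from testis, and Slc25a41 had no count in any library.

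The summed level of all 47 members was 2017, 1997 and 1893 CPM in del and 3937, 3109 and 3147 CPM in fl, and the groups did not overlap. Without Slc25a4 the sum was 1720.0, 1740.0 and 1624 CPM in del and 2509, 2669 and 2685 CPM in fl. Much of the difference lay in Slc25a3, Slc25a4 and Slc25a5, which together held 61.6%, 62.1% and 63.7% of the family's summed CPM in del and 77.2%, 71.7% and 68.6% in fl. The other 44 members summed to 775, 757 and 687 CPM in del and 898, 879 and 989 CPM in fl, still without overlap. These sums add 3' tags that are not scaled to transcript length, and no order of level between genes is read from them.

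**Figure D2:**
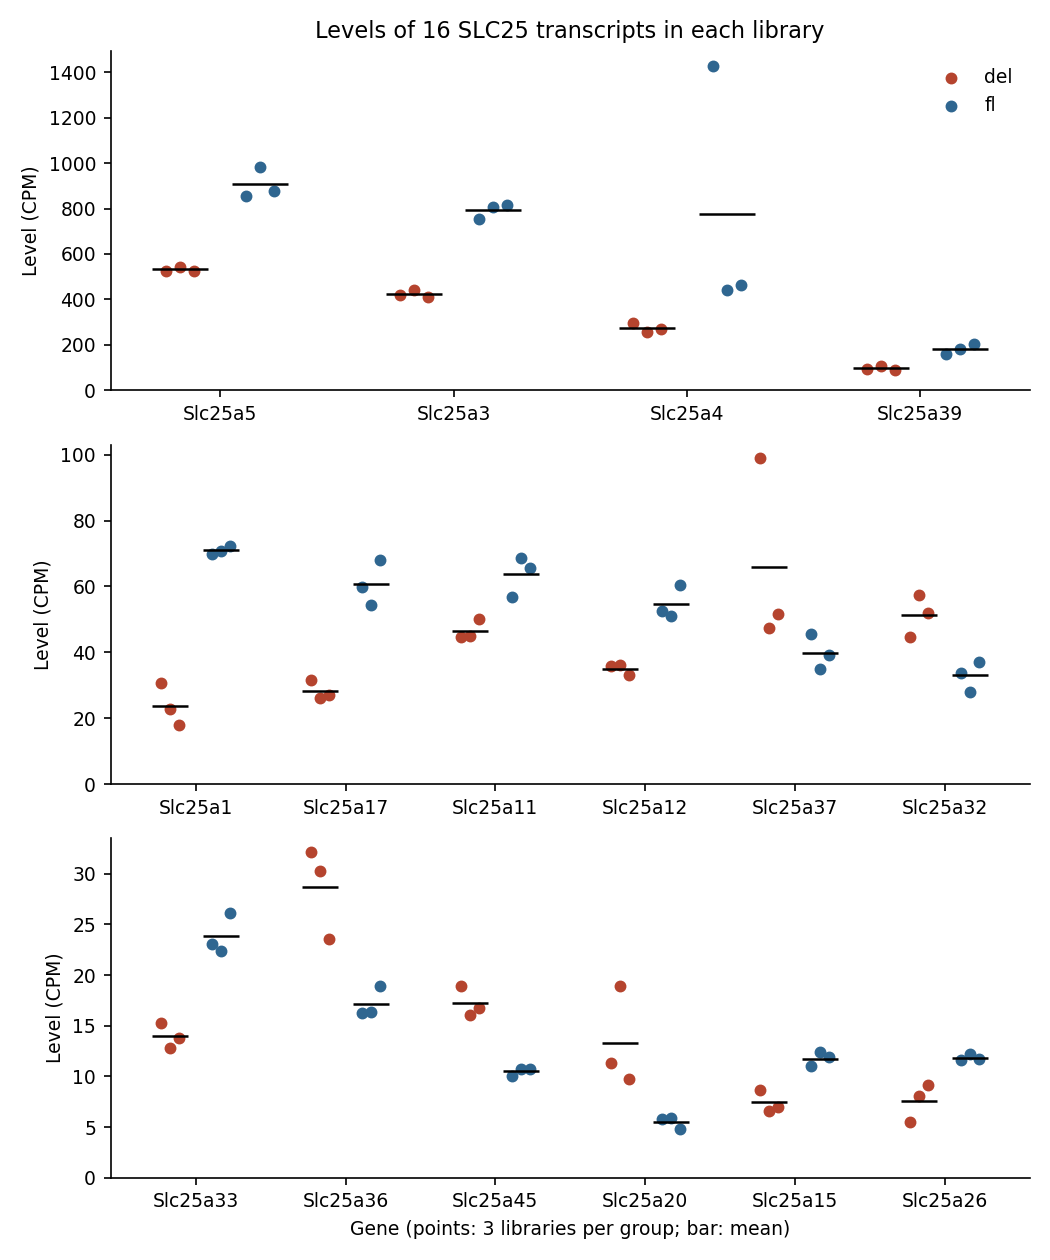
CPM of 16 SLC25 transcripts, with 1 point per library, del left of fl for each gene, and a bar at the group mean (n = 3 each). Slc25a4 in fl replicate 1 (1428 CPM) and Slc25a37 in del replicate 1 (99.0 CPM) stand apart from the other libraries of their group. Slc25a3 and Slc25a5 show tight groups without overlap, and Slc25a1 is without overlap but tight in fl only.

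Of 4 carriers of di- and tricarboxylates 3 were tested and all 3 were called lower in del, with a median log2 fold change of -0.62. The call of Slc25a1 held under every alternative tested, and those of Slc25a10 and Slc25a11 did not. Slc25a1 (13358, chromosome 16, 17925211 to 17928219) encodes the citrate carrier, which exports citrate to the cytosol, where it yields acetyl-CoA for lipid synthesis. It was at 30.8, 22.7 and 17.8 CPM in del and at 69.7, 70.7 and 72.4 CPM in fl. Its fl values were tightly grouped (71.0 ± 1.37 CPM) and its del values more spread (23.8 ± 6.55 CPM; SD, n = 3 each). The log2 fold change of -1.57 ± 0.19 (adjusted p = 9.68e-05) was the most negative of the family, and 6.84% of all tested genes had a more negative one. Slc25a11 (67863), which exchanges 2-oxoglutarate for malate in the malate-aspartate shuttle, was at 44.8, 45.0 and 50.0 CPM in del and at 56.9, 68.7 and 65.5 CPM in fl (log2 fold change -0.45 ± 0.14, adjusted p = 0.0159). Slc25a10, the dicarboxylate carrier, was at 12.1, 7.58 and 9.46 CPM in del and at 15.4, 13.8 and 17.01 CPM in fl (log2 fold change -0.62 ± 0.20, adjusted p = 0.0193). For neither gene did the groups overlap, yet both calls depended on single libraries. Slc25a11 did not pass without fl replicate 2 (adjusted p = 0.0701) or fl replicate 3 (0.0521), nor Slc25a10 without del replicate 2 (0.058), del replicate 3 (0.0633) or fl replicate 3 (0.0584). In thinned libraries the log2 fold change of Slc25a10 was -0.098 (adjusted p = 0.851). Removal of the trend on transcript length and GC took Slc25a11 to 0.11. The gene models of Slc25a11 and of Rnf167, on the opposite strand, overlap by 245 bases. Which ends overlap was not worked out, and the labels do not state the strand setting of the count. Slc25a21, the oxodicarboxylate carrier, had no count.

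Enzymes that use the same metabolites moved with these carriers only in part. Of 6 tested enzymes of the malate-aspartate and glycerol phosphate shuttles 4 were lower in del and 1 higher. The aspartate aminotransferase genes Got1 (41.1 ± 2.18 CPM in del and 134 ± 10.1 CPM in fl, log2 fold change -1.70 ± 0.14, adjusted p = 8.5e-06) and Got2 (109 ± 5.68 CPM in del and 270 ± 47.8 CPM in fl, log2 fold change -1.31 ± 0.16, adjusted p = 0.000111) fell most clearly (SD, n = 3 each). The 1 that rose was Gpd1l (log2 fold change 0.42, adjusted p = 0.0367), named after its values were seen. No gene of this list was higher without del replicate 3, fl replicate 1, fl replicate 2 or fl replicate 3, nor with DESeq2, upper-quartile factors, no count filter, the replicate block or thinning. Of 5 tested genes of citrate use in the cytosol 2 were lower and 1 higher. Fasn, the fatty acid synthase gene, rose (log2 fold change 0.73 ± 0.14, adjusted p = 0.00129), Aco1, cytosolic aconitase, fell (-0.98 ± 0.24, adjusted p = 0.00607), and Acly, which cleaves the exported citrate, averaged 88.7 CPM in del and 88.3 CPM in fl (adjusted p = 0.968). Both genes of the mitochondrial pyruvate carrier, which is not an SLC25 protein, were lower, with Mpc1 at 60.1 ± 7.46 CPM in del and 173 ± 7.02 CPM in fl (log2 fold change -1.52 ± 0.14, adjusted p = 2.18e-05) and Mpc2 at a log2 fold change of -0.55 ± 0.13 (adjusted p = 0.00433).

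Carriers of nucleotides and cofactors moved both ways. Of 10 genes 8 were tested, with 3 lower, 2 higher and 3 not called in del (median log2 fold change -0.07). Slc25a17 (20524, chromosome 15, 81318921 to 81360765), a carrier of coenzyme A, FAD and NAD that resides in peroxisomes, was at 31.6, 26.1 and 27.0 CPM in del and at 59.7, 54.4 and 68.0 CPM in fl. It fell by 1.10 ± 0.15 on the log2 scale (adjusted p = 0.000197), with no overlap. Slc25a32 (69906, chromosome 15, 39091230 to 39112720), which carries folate and FAD into mitochondria, was higher in del at 44.5, 57.3 and 51.9 CPM, against 33.8, 28.0 and 37.1 CPM in fl (log2 fold change 0.63 ± 0.16, adjusted p = 0.00667). After removal of the trend on transcript length and GC its log2 fold change was 0.01. Of the mitochondrial folate and glycine enzymes 3 of 4 tested were lower and none higher, among them Gcsh (log2 fold change -0.75 ± 0.13, adjusted p = 0.000754) and Shmt2 (-0.79 ± 0.15, adjusted p = 0.00114).

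The 2 pyrimidine nucleotide carriers, which supply mitochondrial DNA and RNA synthesis, differed in direction. Slc25a33 (70556, chromosome 4, 149744036 to 149774267), known to be induced by insulin-like growth factor, was at 15.3, 12.8 and 13.8 CPM in del and at 23.0, 22.4 and 26.1 CPM in fl (log2 fold change -0.76 ± 0.15, adjusted p = 0.00171). Slc25a36 (192287, chromosome 9, 97075281 to 97111041) was at 32.1, 30.3 and 23.5 CPM in del and at 16.3, 16.3 and 18.9 CPM in fl (log2 fold change 0.74 ± 0.16, adjusted p = 0.00315). Neither gene's groups overlapped. Slc25a33 therefore made up 32.2%, 29.7% and 37.0% of the counts of the pair in del and 58.6%, 57.8% and 58.0% in fl. The mean share was 33.0% ± 3.70 in del and 58.1% ± 0.419 in fl (SD, n = 3 each), and the two-sided exact permutation p was 0.1, the smallest that 3 against 3 libraries can give (0.3 adjusted over the 9 pairs compared). Both genes have an annotated antisense gene.

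Of the other cofactor carriers only Slc25a26 was called. This gene, whose product imports the methyl donor S-adenosylmethionine, was at 5.53, 8.05 and 9.19 CPM in del and at 11.6, 12.2 and 11.7 CPM in fl (log2 fold change -0.65 ± 0.21, adjusted p = 0.0204). It did not pass without del replicate 1 (adjusted p = 0.0839) or fl replicate 2 (0.058), nor with DESeq2 (0.0548). Slc25a51, the NAD carrier, averaged 25.2 ± 3.13 CPM in del and 20.1 ± 3.65 CPM in fl (adjusted p = 0.122; SD, n = 3 each). Slc25a16, linked to coenzyme A, had a log2 fold change of -0.09 ± 0.17 (adjusted p = 0.649). Slc25a42, the other coenzyme A carrier, had 3, 1 and 1 counts in del and 10, 2 and 11 in fl, and Slc25a47 had 4, 1 and 3 in del and 10, 15 and 12 in fl, too few to test. Of 13 tested genes of coenzyme A, NAD and thiamine supply 4 were lower and 4 higher in del. Pank3, a pantothenate kinase gene (log2 fold change 0.92 ± 0.15, adjusted p = 0.000503), and Nadk, the NAD kinase gene (0.63 ± 0.12, adjusted p = 0.00135), had the smallest p of that list. Its lower count was 2 without del replicate 1 or fl replicate 3, and its higher count was 2 without del replicate 3 or fl replicate 1.

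**Figure D3:**
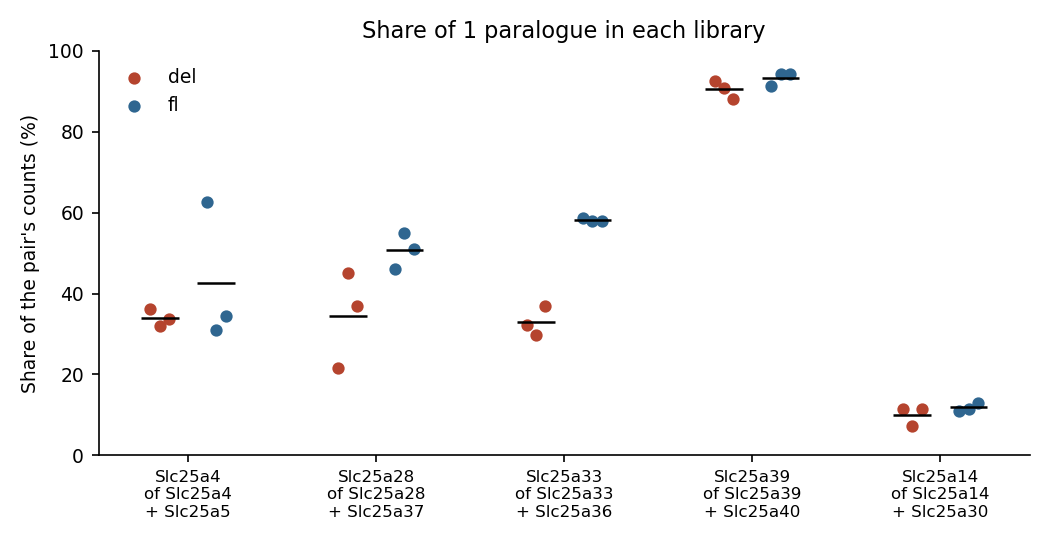
Share of the first gene in the summed counts of 5 pairs of related carriers in each library, with del left of fl and a bar at the mean (n = 3 each). For Slc25a33 of the pyrimidine nucleotide pair del lies at 29.7% to 37.0% and fl at 57.8% to 58.6%, whereas the shares of Slc25a4, Slc25a39 and Slc25a14 overlap between the groups.

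Amino acid and carnitine carriers moved both ways. Of 10 genes 6 were tested, 3 lower, 1 higher and 2 not called in del, with a median log2 fold change of -0.33. Slc25a20 (57279, chromosome 9, 108662136 to 108684642), the carnitine/acylcarnitine carrier through which long-chain fatty acids reach the matrix, had the most positive log2 fold change of the family at 1.19 ± 0.26 (adjusted p = 0.00282). It was at 11.3, 18.9 and 9.73 CPM in del and at 5.85, 5.93 and 4.84 CPM in fl. The groups did not overlap, and del replicate 2 was the highest of its group. Without that library the log2 fold change was 0.92 ± 0.21 (adjusted p = 0.00633). The rest of the carnitine system did not move as a block: of 3 tested genes Crat, carnitine acetyltransferase, rose (log2 fold change 1.06 ± 0.23, adjusted p = 0.00278), Cpt2, which acts in the matrix on what the carrier delivers, fell (-0.68 ± 0.17, adjusted p = 0.0072), and Cpt1a was not called (-0.17, adjusted p = 0.617).

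Slc25a12 (78830, chromosome 2, 71274270 to 71367781), the aspartate/glutamate carrier aralar of the malate-aspartate shuttle, was at 35.8, 36.0 and 33.2 CPM in del and at 52.6, 51.0 and 60.4 CPM in fl (log2 fold change -0.64 ± 0.13, adjusted p = 0.00232). Its paralogue Slc25a13 (citrin) had 0, 0 and 1 counts in del and 1, 1 and 0 in fl, so that nearly all counts of this pair were Slc25a12 in both groups. Slc25a15, which carries ornithine, was at 8.69, 6.63 and 7.03 CPM in del and at 11.0, 12.4 and 11.9 CPM in fl (log2 fold change -0.64 ± 0.18, adjusted p = 0.0124). It moved the same way as the enzymes that make proline and ornithine, of which 3 of 5 tested were lower and none higher. They included Aldh18a1, pyrroline-5-carboxylate synthase, at 40.1 ± 2.93 CPM in del and 135 ± 8.60 CPM in fl (SD, n = 3 each; log2 fold change -1.75 ± 0.14, adjusted p = 7.5e-06). Slc25a38, which takes up glycine for heme synthesis, was at 8.95, 6.63 and 11.9 CPM in del and at 13.3, 13.4 and 13.6 CPM in fl (log2 fold change -0.51 ± 0.20, adjusted p = 0.049). It did not pass without del replicate 1 (adjusted p = 0.133), del replicate 2 (0.129), fl replicate 1 (0.0792), fl replicate 2 (0.101) or fl replicate 3 (0.101), nor with DESeq2 (0.11).

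Slc25a44 (229517), the carrier of branched-chain amino acids, was at 58.5, 73.4 and 50.8 CPM in del and at 68.9, 50.0 and 83.0 CPM in fl, with wide overlap (log2 fold change -0.15 ± 0.21, adjusted p = 0.544). The enzymes that transaminate these amino acids were both lower in del, Bcat2 at 17.6 ± 1.38 CPM in del and 54.1 ± 3.69 CPM in fl (SD, n = 3 each; log2 fold change -1.61 ± 0.14, adjusted p = 1.53e-05) and Bcat1, named after its values were seen, at -1.10 (adjusted p = 0.000148). Slc25a22, a glutamate carrier, averaged 18.7 ± 0.746 CPM in del and 19.4 ± 2.89 CPM in fl (SD, n = 3 each; adjusted p = 0.832). Its paralogue Slc25a18 had 3, 1 and 2 counts in del and none in fl. With so few counts it did not enter the test, but it was called higher by DESeq2 (adjusted p = 0.0157) and without the count filter (adjusted p = 0.00848). Gls2, a glutaminase gene, averaged 0.0901 CPM in del and 6.78 CPM in fl (log2 fold change -5.75 ± 0.57, adjusted p = 3.01e-05). Of 7 tested genes of glutamine and branched-chain amino acid use 3 were lower and none higher. Slc25a29, which carries basic amino acids, had 1, 0 and 3 counts in del and 13, 16 and 9 in fl and was called lower without the count filter (adjusted p = 0.0271) but not by DESeq2 (0.0843), and Slc25a2 had none in del and 0, 1 and 1 in fl.

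The iron and glutathione carriers were all expressed, with 1 lower, 1 higher and 2 not called in del. Slc25a39 (68066, chromosome 11, 102402969 to 102408675), the main mitochondrial glutathione importer, was at 91.9, 107 and 91.1 CPM in del and at 159, 183 and 202 CPM in fl, without overlap. It fell by 0.91 ± 0.15 on the log2 scale (adjusted p = 0.000518). Its paralogue Slc25a40 averaged 10.2 ± 2.59 CPM in del and 12.9 ± 2.12 CPM in fl (SD, n = 3 each; adjusted p = 0.212), and the shares of the 2 genes overlapped between the groups. The mitoferrins Slc25a37 and Slc25a28 import iron, the first best known from red cell precursors. Slc25a37 (67712, chromosome 14, 69241848 to 69285544) was at 99.0, 47.4 and 51.6 CPM in del and at 45.5, 35.0 and 39.1 CPM in fl (log2 fold change 0.74 ± 0.27, adjusted p = 0.0359). Del replicate 1 was 2.00 times the mean of the other del libraries. Without it the log2 fold change was 0.31 ± 0.17 (adjusted p = 0.144), and the call was also lost without fl replicate 2 (adjusted p = 0.1) or fl replicate 3 (0.0732). Slc25a28 was at 27.4, 38.8 and 30.3 CPM in del and at 39.0, 42.6 and 40.6 CPM in fl, and was not called (log2 fold change -0.36 ± 0.16, adjusted p = 0.0694). Without del replicate 2 it passed (log2 fold change -0.50, adjusted p = 0.0191). Slc25a28 made up 21.7%, 45.1% and 37.0% of the counts of the mitoferrin pair in del and 46.1%, 54.9% and 50.9% in fl, without overlap (two-sided exact permutation p = 0.1, adjusted 0.3). Of the erythroid markers, Alas2 was at 0 in both groups and Tfrc, the transferrin receptor gene that dividing cells also express, was higher in del (225 ± 17.9 CPM in del and 134 ± 26.9 CPM in fl; SD, n = 3 each).

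Genes of heme and iron-sulfur synthesis, which use the imported iron, were lower or not called. Of 16 tested genes 8 were lower and none higher in del. Glrx5, the glutaredoxin of iron-sulfur cluster transfer, averaged 53.6 ± 2.74 CPM in del and 146 ± 10.2 CPM in fl (log2 fold change -1.45 ± 0.13, adjusted p = 1.86e-05), and Fdx1, ferredoxin 1, averaged 21.7 ± 0.606 CPM in del and 66.1 ± 8.45 CPM in fl (-1.60 ± 0.15, adjusted p = 2.12e-05; SD, n = 3 each). Without fl replicate 1 there was 1 higher gene in the list, and without fl replicate 2 there were 2. The mitochondrial ABC transporters, which include exporters of heme and iron-sulfur intermediates, had no call among 4 tested genes, with Abcb10 at a log2 fold change of 0.59 ± 0.32 (adjusted p = 0.128). Without del replicate 2, 1 of the 4 was higher.

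The relatives of the uncoupling proteins were not called. Slc25a30 (67554) was at 46.6, 47.8 and 40.0 CPM in del and at 50.2, 37.6 and 37.4 CPM in fl (log2 fold change 0.10 ± 0.16, adjusted p = 0.618). Slc25a14 averaged 4.99 ± 1.14 CPM in del and 5.56 ± 0.634 CPM in fl (SD, n = 3 each; adjusted p = 0.734), and Slc25a27 had no count. Of family members whose symbols follow another pattern, Ucp2, an uncoupling protein abundant in blood cells, was higher in del at 477 CPM, against 273 CPM in fl (log2 fold change 0.81, adjusted p = 0.000829), and was not among the 2 of its list with the smallest p. Those were Mtch1 (-0.78 ± 0.12, adjusted p = 0.000403) and Mtch2 (-0.85 ± 0.15, adjusted p = 0.000779), insertases of the outer membrane, both lower.

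Among the outer membrane and less studied members, 2 of 8 genes were tested. Slc25a46 (67453), an outer membrane protein that takes part in mitochondrial fission, was at 36.6, 40.3 and 36.0 CPM in del and at 42.0, 41.7 and 45.3 CPM in fl. The groups did not overlap, but the log2 fold change of -0.20 ± 0.13 was not called (adjusted p = 0.203). Slc25a45 (107375, chromosome 19, 5877801 to 5885768) was at 19.0, 16.1 and 16.8 CPM in del and at 10.1, 10.7 and 10.7 CPM in fl (log2 fold change 0.73 ± 0.15, adjusted p = 0.00216). Slc25a35 had 5, 2 and 6 counts in del and 9, 6 and 1 in fl, Slc25a53 had 1, 0 and 4 in del and 3, 0 and 3 in fl, and Slc25a43 and Slc25a48 had none in del and 6 and 4 over the fl group. Slc25a34 and Slc25a54 had no count. Of 8 tested fusion and fission genes 3 were lower and 3 higher in del, with the fission genes Dnm1l higher (0.94 ± 0.15, adjusted p = 0.000406) and Mff, which recruits its product, lower (-0.84 ± 0.13, adjusted p = 0.000452). The higher count was 1 without del replicate 1, del replicate 3, fl replicate 2 or fl replicate 3.

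In all, 17 members were not tested, of which 6 had no count in any library and the other 11 had at most 45 counts over the 6 libraries, against at least 186 for every tested member. Untested and tested members can be close neighbours in the genome. Slc25a43 (chromosome X, 36743570 to 36777307) ends 18289 bases before Slc25a5, and Slc25a41 (chromosome 17, 57032772 to 57041654) ends 2056 bases before Slc25a23. The pairs Slc25a54 with Slc25a24, 6566 bases apart on chromosome 3, and Slc25a29 with Slc25a47, 13956 bases apart on chromosome 12, held no tested member.

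Other transport and regulatory genes of mitochondria gave a mixed picture. Over 99 tested genes of 15 lists around the carriers 41 were lower and 17 higher in del (median log2 fold change -0.22). Of all tested genes 32.6% were lower and 32.5% higher, and the counts of single small lists are descriptions beside these shares. Of 7 tested porins and sideroflexins 4 were lower and none higher, with Vdac2 at 188 ± 26.3 CPM in del and 459 ± 42.5 CPM in fl (SD, n = 3 each; log2 fold change -1.29 ± 0.16, adjusted p = 0.000104) and Sfxn3 at -1.20 ± 0.20 (adjusted p = 0.000538). Without del replicate 1 there was 1 higher gene. The calcium uniporter and exchangers ran the other way, with 5 of 8 tested genes higher and none lower, among them Letm1 (136 ± 19.8 CPM in del and 67.0 ± 1.92 CPM in fl; SD, n = 3 each; log2 fold change 1.02 ± 0.14, adjusted p = 0.000229) and Mcur1 (1.32 ± 0.21, adjusted p = 0.00045). Of 8 tested regulators of mitochondrial biogenesis 2 were lower and 1 higher. The coactivator gene Ppargc1b rose (42.5 ± 4.82 CPM in del and 10.5 ± 2.00 CPM in fl; SD, n = 3 each; log2 fold change 2.01 ± 0.18, adjusted p = 1.52e-05), and Gabpa, an ETS factor that binds promoters of mitochondrial genes, fell (-0.69 ± 0.13, adjusted p = 0.00116). The lower count of that list was 1 without del replicate 1 or fl replicate 2, and its higher count was 2 without fl replicate 2.

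Sites for the cluster's seeds were counted in the longest annotated 3' UTR of each gene (GENCODE, GRCm38) as the reverse complement of seed bases 2 to 8. The letters were GCACTTT for miR-17-5p and miR-20a-5p, GCACCTT for miR-18a-5p, TTTGCAC for miR-19a-3p and miR-19b-3p, and GTGCAAT for miR-92a-3p, on the transcript's strand only. Of the 30 tested members 14 (46.7%) held at least 1 site, as did 35.5% of 9907 tested genes with a 3' UTR. Of these 14, 3 were lower, 4 higher and 7 not called in del (median log2 fold change -0.10). Of the 16 members without a site 11 were lower and 1 higher (median -0.65). Over all tested genes the median was 0.30 with a site and -0.16 without. Members with a site had longer 3' UTRs (median 1898 nucleotides) than those without (median 892), and the part of UTR length in this split was not tested. By family, a miR-17/20a site was found in 6 of the 30 members (15.2% of all genes held it), a miR-18a site in 6 (10.2% of all genes), a miR-19 site in 3 (1391 of the 9907 genes) and a miR-92a site in 4 (7.94% of all genes).

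The sites of 3 members higher in del and of 1 lower member are shown to set the called members side by side, with 10 bases on either side. Capitals mark the bases that pair with the seed, and positions count from 1 at the start of the UTR.
Slc25a32, miR-18a, 586 to 592: gaaatatctaGCACCTTttgccattcc
Slc25a32, miR-92a, 364 to 370: aactgaccatGTGCAATagcaaggaac
Slc25a36, miR-92a, 1296 to 1302: tttacactttGTGCAATggctttctct
Slc25a36, miR-17/20a, 1332 to 1338: ctttgtgaatGCACTTTgtggcctttt
Slc25a20, miR-19, 680 to 686: gaaggctcctTTTGCACattctttccc
Slc25a15, miR-18a, 872 to 878: aatccagggtGCACCTTtggtactgga
Slc25a15, miR-92a, 1757 to 1763: tcatgtttggGTGCAATtgttcttgag
Slc25a32 held 3 sites for miR-18a and 2 for miR-92a in a UTR of 4739 nucleotides, the most of any member. Slc25a45, also higher, held 1 site for miR-18a, and Slc25a37, higher as well, held none. Of the lower members Slc25a10, Slc25a15 and Slc25a23 held sites. Members with a site and members without one were each found in both directions. A match is a description of the letters only, and the part of the sites in the changes was not tested.

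Transcript length went with the direction of change. The longest annotated transcript of the 5 higher members had a median of 5227 nucleotides (2599 to 5927), that of the 14 lower members 1906 (1240 to 6351) and that of the 11 not called 3724 (1862 to 5590). Across the 30 members Spearman's rho between length and log2 fold change was 0.538, and across 10010 tested genes it was 0.407. Both are descriptions across genes of the same 6 libraries, which are not independent replicates. The part of length in the members' changes was not tested. When the dependence on length and GC content over all genes was subtracted, which gives values without a test, the median of the members was -0.20 and that of all genes 0.03. The log2 fold changes became -0.87 for Slc25a1, -1.21 for Slc25a3, -0.78 for Slc25a17, -1.17 for Slc25a12, -0.14 for Slc25a5, -0.20 for Slc25a39 and -0.28 for Slc25a33. Among the higher members they became 1.27 for Slc25a20, 1.00 for Slc25a45, 0.30 for Slc25a37, 0.19 for Slc25a36 and 0.01 for Slc25a32. Slc25a11 and Slc25a38 changed sign, to 0.11 and 0.061.

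**Figure D4:**
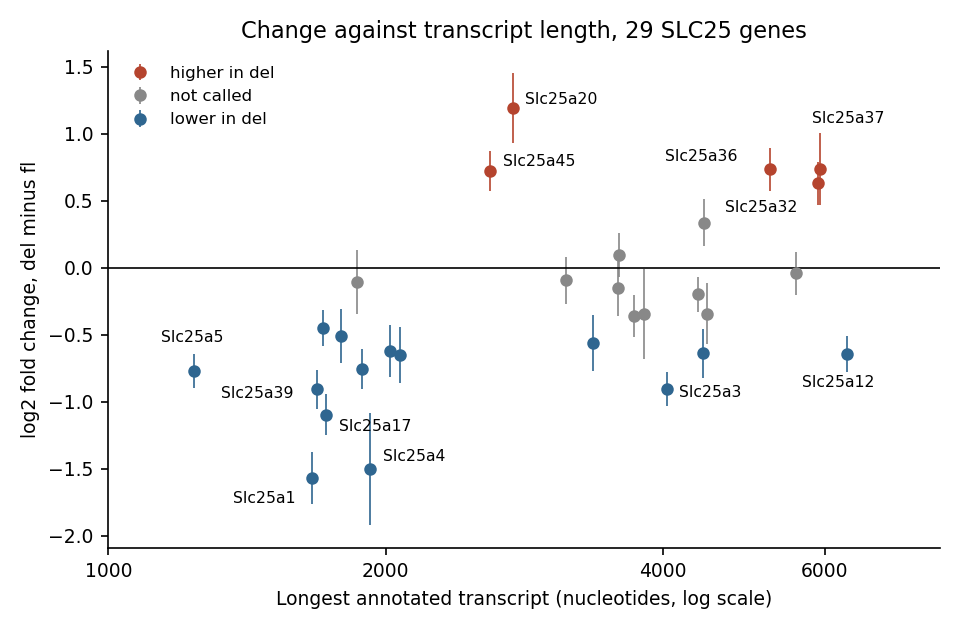
The log2 fold change (del minus fl, bars of 1 standard error) of 29 of the 30 tested SLC25 genes against the length of the longest annotated transcript on a log scale, coloured by the call. Short transcripts lie mostly below 0 and 3 of the 5 higher members have 5227 to 5927 nucleotides, while Slc25a12 (6351 nucleotides) is long and lower in del.

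Promoter windows of 300 bases, 250 before to 50 after the start, were matched in RefSeq (GRCm38.p6) for 36 of the 47 members, 23 of them tested. The E-box CACGTG, which Myc and Max bind, and which reads the same on both strands, was found in 5 of these 23 (21.7%), in 12.4% of 8313 tested genes and in 7.15% of 32851 promoters. Of the 5, Slc25a1, Slc25a15 and Slc25a33 were lower, Slc25a36 was higher and Slc25a14 was not called in del. CCGGAAG, the core that ETS factors such as Gabpa bind, searched on both strands, was found in 6 of the 23 (26.1%) and in 22.7% of tested genes. CGCATGCG, the NRF1 core, also the same on both strands, was in none of these windows, against 4.82% of tested genes. The promoters of the 2 pyrimidine nucleotide carriers, which moved in opposite directions, and of Slc25a1 are shown because all 3 hold an E-box. Each is on the minus strand, 5′ to 3′, with the E-box in capitals.
Slc25a33, chr4:149774218-149774517: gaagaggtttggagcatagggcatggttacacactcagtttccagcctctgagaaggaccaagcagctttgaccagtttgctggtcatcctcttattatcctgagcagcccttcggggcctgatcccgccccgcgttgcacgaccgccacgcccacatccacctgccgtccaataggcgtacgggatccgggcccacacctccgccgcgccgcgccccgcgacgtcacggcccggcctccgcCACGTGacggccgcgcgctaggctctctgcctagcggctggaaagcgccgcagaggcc
Slc25a36, chr9:97110992-97111291: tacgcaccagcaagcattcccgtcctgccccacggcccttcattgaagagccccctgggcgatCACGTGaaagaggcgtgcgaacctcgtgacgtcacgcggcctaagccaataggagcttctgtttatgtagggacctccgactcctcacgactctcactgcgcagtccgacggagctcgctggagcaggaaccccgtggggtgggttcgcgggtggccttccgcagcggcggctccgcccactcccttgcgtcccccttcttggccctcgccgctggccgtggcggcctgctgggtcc
Slc25a1, chr16:17928170-17928469: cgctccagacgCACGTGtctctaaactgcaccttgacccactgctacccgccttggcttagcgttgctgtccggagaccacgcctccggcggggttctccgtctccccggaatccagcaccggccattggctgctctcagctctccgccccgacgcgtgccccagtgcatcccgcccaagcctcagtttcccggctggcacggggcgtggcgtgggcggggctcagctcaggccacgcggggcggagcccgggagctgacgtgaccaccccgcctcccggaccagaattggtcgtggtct
Relative to the start, the E-box began at position -8 in Slc25a33, -187 in Slc25a36 and -239 in Slc25a1. Among tested members it was thus present in 1 that rose, 3 that fell and 1 that was not called.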

How the data were processed

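The authors deposited a table of raw read counts per gene for 6 libraries of barcoded, oligo-dT primed, strand-specific 3' RNA-seq, per the labels' protocols. Of the read processing, the submitters' processing notes name STAR, HTSeq and mm10 without versions or settings. Of 24052 gene numbers 23969 matched the RefSeq table, and the unmatched ones held 0.204% to 1.03% of a library's counts. All rows entered the fit. Genes were filtered with filterByExpr, libraries scaled with TMM and groups compared with the robust quasi-likelihood F test of edgeR 4.0.16 in R 4.3.3, with Benjamini-Hochberg adjustment over 10260 genes and a threshold of 0.05. Standard errors came from the F statistic, and CPM used the TMM-scaled sizes. Alternatives were DESeq2 1.42.0 (Wald test, and its size factors in edgeR), upper-quartile factors, no count filter, at least 10 CPM in 3 libraries, thinning to equal depth, a replicate block, each library left out, and the length and GC trend removed. PCR reads without molecular identifiers are not independent molecules. The members, gene lists, pairs and tests were chosen with earlier results of these data known. Every member is in the counts, but some genes covered by these rules are not reported here. Values in each library are given for called members changed at least 2-fold and for the largest member of each role by mean CPM, with other members added, and each list names the 2 genes with the smallest adjusted p.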

Additional observations from a re-analysis of the deposited data

How the results depend on the processing

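Called directions held better than calls. Under the 13 alternatives with a test, 6 lower members (Slc25a1, Slc25a3, Slc25a5, Slc25a15, Slc25a17 and Slc25a39) and 3 higher members (Slc25a20, Slc25a32 and Slc25a36) were called each time, and 8 lower and 2 higher members lost the call under at least 1. Among these alternatives none of the called members changed direction. With the length and GC trend removed, which has no test, Slc25a38 was at 0.061 and Slc25a11 at 0.11 (log2 fold change). In libraries thinned to equal depth 8 of 29 members were lower (27.6%, beside 2238 of 9333 genes) and 3 higher (10.3%, beside 26.9%), and of the genes around the carriers 25 were lower and 11 higher. Thinning ended the calls of Slc25a10 (adjusted p = 0.851), Slc25a23 (0.776), Slc25a38 (0.593), Slc25a26 (0.297), Slc25a37 (0.0804), Slc25a33 (0.0803), Slc25a12 (0.0561) and Slc25a45 (0.0533). Leaving out 1 library gave 10 to 13 lower members (33.3% to 43.3%, beside 29.3% to 30.9% of all genes). These fits gave 4 to 5 higher members (12.9% to 16.7%, beside 30% to 32.1% of all genes). The correlations of the deviations of same-numbered libraries were 0.083, -0.040 and -0.021, and those of different-numbered libraries ran from -0.151 to 0.174. No pairing by replicate number was seen in them, but deviations from means of 3 libraries cannot settle whether same-numbered libraries shared a batch. The fit with a replicate block gave 12 lower members (40%, beside 31.3% of all genes) and 5 higher (16.7%, beside 32.1%). DESeq2, which gave an adjusted p for 38 members, called 11 lower (28.9%, beside 26.1% of all genes) and 6 higher (15.8%, beside 27.4%), with a median of all genes of 0.12. Upper-quartile factors moved the median of all genes to -0.13, and that of the members to -0.48. Of the 17 untested members 6 had no count. Of the other 11, Slc25a18 was called by DESeq2 and without the count filter, and Slc25a29 without the filter only.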
